A study of Mus musculus with 30 samples.

Results

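Rhox5, Rhox6, Rhox8 and Rhox9 are homeobox genes of the reproductive homeobox cluster on the mouse X chromosome. They were taken by gene symbol, and make up 4 of the 42 genes with a Rhox symbol and 4 of the 49315 genes in the count files. The 4 were chosen by their measured levels and treatment changes in these libraries, so their levels and fold changes are given as a description, without p-values. One of the 4 is said to have risen, fallen, passed or been called by edgeR's quasi-likelihood test across 19323 genes (Benjamini-Hochberg adjusted p of 0.05). Because the 4 were chosen by these same changes, such words only mark a threshold and are no independent test of them.

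RNA was sequenced from 30 cultures of testes of C57BL/6 mouse fetuses, dissected from the mesonephros on gestational day 14 and kept for 24 h on culture inserts. The libraries came from testes treated with 100 µM MEHP, the monoester released from the plasticizer di-(2-ethylhexyl) phthalate (n = 6), 1 µM ATRA, the active form of vitamin A (n = 5), both compounds at these doses (MEHP + ATRA, n = 4), or the DMSO vehicle (n = 15), and every culture, vehicle included, held DMSO at a dilution of 1 in 4000. The sample titles carry a second number of unstated meaning, which was 525 to 599 (upper range) in all 6 MEHP and 6 vehicle libraries and 416 to 465 (lower range) in all ATRA, all MEHP + ATRA and 9 vehicle libraries, so MEHP was set against upper vehicle and the other treatments against lower vehicle by a range term in the fit. Nothing in the labels tells if each library is a different animal, and p-values therefore speak of the spread among libraries, which may be technical.

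Libraries held 17551454 to 29306917 counts. All 18 Sertoli cell markers and all 12 germ cell markers were detected in each group. Genes listed as checks of the exposure were called. Cyp26a1, the retinoic acid-degrading enzyme, rose by 6.10 ± 0.31 (log2 fold change ± SE) with ATRA and 6.31 ± 0.32 with MEHP + ATRA, and Angptl4, a target of the PPAR nuclear receptors, rose by 1.39 ± 0.07 with MEHP (edgeR quasi-likelihood adjusted p = 2.3e-15, 7.8e-16 and 4.4e-14). All 3 retinoic acid checks rose with ATRA, and 1 of them also rose with MEHP. The 2 PPAR checks rose with MEHP, and 1 of them fell with ATRA. Over all genes tested, 9.06% rose and 9.03% fell with ATRA, and 2.88% rose and 1.84% fell with MEHP.

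Rhox genes encode DNA-binding proteins that act in the testis, ovary and placenta, and their order along the X chromosome is known to follow, in part, when and where they are expressed. Rhox5, the founding member, is known from Sertoli and germ cells and from the placenta, and its absence in mice reduces sperm number and motility. Rhox8 is known from the somatic cells of the gonads, Sertoli cells in the testis and granulosa cells in the ovary. Rhox6 and Rhox9 are closely related genes known from the placenta and from fetal germ cells.

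In the files, Rhox5 (ENSMUSG00000095180) spans chrX:37804842-37808876 on the plus strand, Rhox6 (ENSMUSG00000006200) chrX:37826910-37829857 on the plus strand, Rhox8 (ENSMUSG00000064137) chrX:37874778-37878944 on the minus strand and Rhox9 (ENSMUSG00000068048) chrX:37899097-37901770 on the minus strand. These starts and ends equal those of GENCODE M21 on GRCm38, and none of the 4 overlaps another gene of the files. The stretch of coding sequence below, 60 bases in each gene, lies in the part of the homeobox that encodes the DNA-contacting helix. It is shown because this helix is what the 4 genes have in common as homeobox genes, and it lets a reader see how alike they are there. Written 5′ to 3′ on the coding strand, capitals mark the 29 of 60 bases that are identical in all 4 genes, and each stretch is split by an intron, so it comes from 2 genomic segments between the given ends.
Rhox5, chrX:37806099-37808653, plus strand: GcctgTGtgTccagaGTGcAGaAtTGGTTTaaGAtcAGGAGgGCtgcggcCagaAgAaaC
Rhox6, chrX:37828440-37829662, plus strand: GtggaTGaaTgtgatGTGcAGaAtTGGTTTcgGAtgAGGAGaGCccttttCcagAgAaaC
Rhox8, chrX:37874965-37876243, minus strand: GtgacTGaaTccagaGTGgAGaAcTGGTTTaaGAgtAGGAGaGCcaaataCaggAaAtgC
Rhox9, chrX:37899261-37900300, minus strand: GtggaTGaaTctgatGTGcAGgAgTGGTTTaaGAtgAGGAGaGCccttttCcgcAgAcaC

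Rhox6 and Rhox9 shared 52 of these 60 bases, and the other pairs shared 36 to 40. Over the whole coding sequence, Rhox6 and Rhox9 were identical at 617 of 681 bases (90.6%), with an unbroken run of 161 identical bases, coding positions 167 to 327 in both. Reads that fall in that run could belong to either gene, so the counts of Rhox6 and Rhox9 are uncertain as separate values and are also given as a sum. Rhox5 and Rhox8 were 64.7% identical over their aligned coding bases, and neither shared a run over 16 bases with another Rhox transcript.

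Levels are given as CPM, the counts scaled by library total after TMM normalization. Per kilobase of gene length, Rhox5 and Rhox8 stood together and far above Rhox9 and Rhox6 in vehicle testes. Their levels were 24.3 ± 4.2 CPM per kb for Rhox5 and 19.0 ± 2.0 for Rhox8 in lower vehicle (SD, n = 9), and 16.9 ± 4.6 for Rhox5 and 24.7 ± 8.3 for Rhox8 in upper vehicle (SD, n = 6), so their order differed between the ranges, and their values overlapped within 1 SD in the upper one. Rhox6 stood at 0.348 ± 0.12 CPM per kb and Rhox9 at 0.146 ± 0.067 in lower vehicle, and at 0.258 ± 0.17 and 0.183 ± 0.080 in upper vehicle, where their spreads overlapped. In counts, Rhox5 had 148 to 737 per library and Rhox8 162 to 1027, against 1 to 39 for Rhox6 and 3 to 56 for Rhox9. Rhox6 and Rhox9 are therefore sparse. The 4 genes held 62.5% of all counts assigned to Rhox genes, from 48.7% to 84.0% in single libraries.

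**Figure D1:**
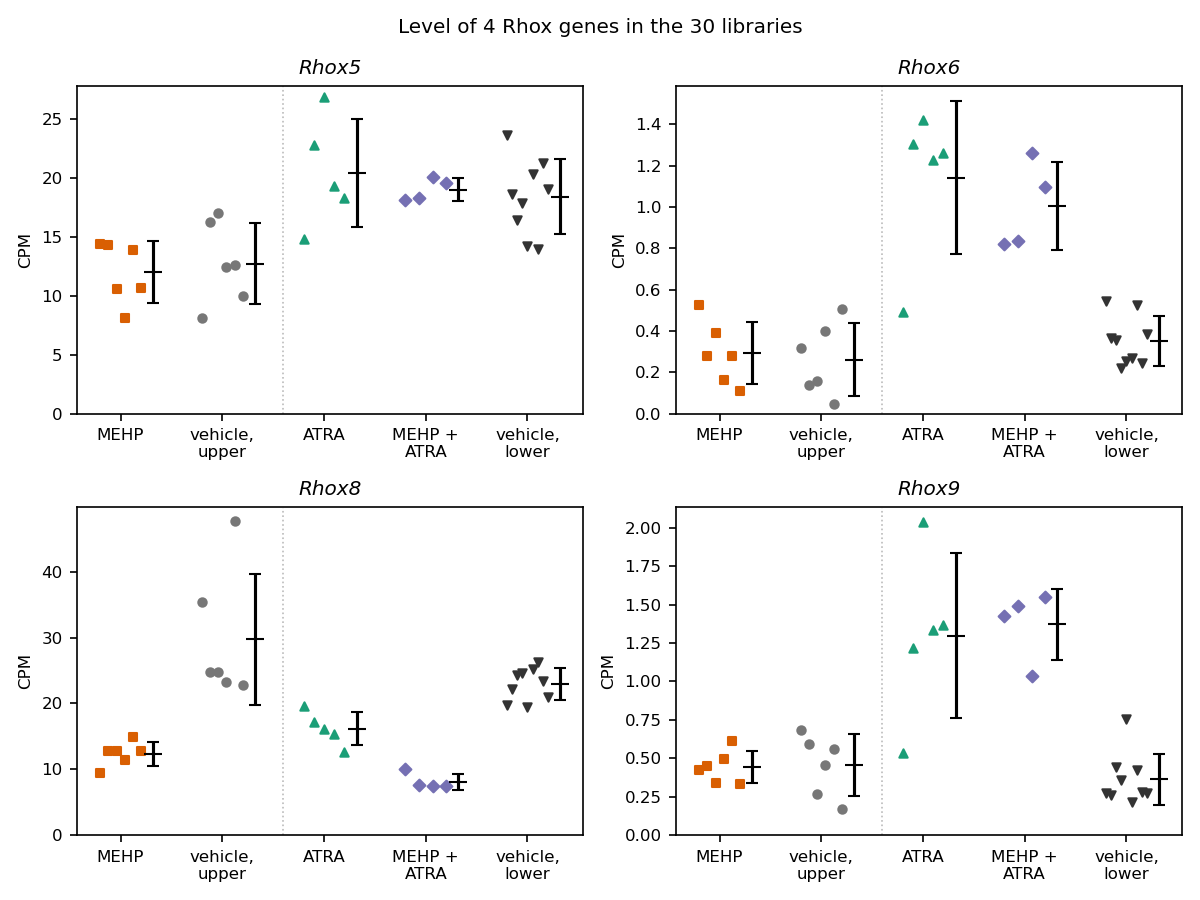
Level in CPM (vertical axes, linear from 0) of Rhox5, Rhox6, Rhox8 and Rhox9 in every library, with the mean and SD of each group at its right (n = 6 MEHP, 6 upper vehicle, 5 ATRA, 4 MEHP + ATRA, 9 lower vehicle). The dotted line parts the upper range of title numbers from the lower: Rhox8 lies lower in every treated group than in the vehicle of its range except for 1 ATRA library at 19.6 CPM, and Rhox6 and Rhox9 lie higher in both groups with ATRA except in 1 ATRA library.

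Rhox8 fell with MEHP. Its level was 9.36 to 14.9 CPM in the 6 MEHP libraries (median 12.8) and 22.8 to 47.7 CPM in the 6 upper vehicle libraries (median 24.8). Every MEHP library lay below every upper vehicle library, a separation in that direction which 0.637% of the genes tested showed. The fitted log2 fold change was -1.27 ± 0.15 (SE), which is 0.414 of the vehicle level. Rhox8 was the 1 gene of the 4 that fell with MEHP and none rose, where 4.72% of genes tested were called (2.88% higher and 1.84% lower). In bulk tissue, fewer cells of a type and less of the RNA per cell cannot be told apart.

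The size of this fall depended on a pair of vehicle cultures. Upper vehicle replicates 11 and 3 held 47.7 and 35.3 CPM of Rhox8, and the other 4 upper vehicle libraries 22.8 to 24.8 CPM. Without that pair, a choice made after seeing the data, the log2 fold change with MEHP was -0.95 ± 0.11. The summed Sertoli markers stood at 3915 to 5132 CPM in MEHP libraries (median 4557) and 3967 to 6089 CPM in upper vehicle libraries (median 4666), with the highest value in vehicle replicate 11, and the part of that in the Rhox8 result was not tested. With MEHP 3 of the 18 Sertoli markers rose (Sox9, Aard and Cst9) and 1 fell (Amh), where 2.88% of all genes tested rose and 1.84% fell. Sox9, the transcription factor that sets Sertoli cell fate, rose by 0.62 ± 0.15, and Amh, the hormone that makes the Müllerian ducts regress, fell by 0.63 ± 0.15 on the log2 scale (edgeR quasi-likelihood adjusted p = 0.0084 and 0.0067). Amh was named after its values were seen. Of 6 endothelial markers 4 rose with MEHP and 0 fell, beside the same shares of all genes tested. The median log2 fold change of the 6 was 0.46, where that of all genes tested was -0.01. The 6 endothelial markers summed to 176 to 320.2 CPM in MEHP libraries (median 301) and 166 to 277 CPM in upper vehicle libraries (median 206). Their part in the Rhox8 result was not tested.

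Rhox8 also fell with ATRA and with MEHP + ATRA. The 5 ATRA libraries held 19.6, 17.2, 16.05, 15.4 and 12.6 CPM, and the 9 lower vehicle libraries 19.5 to 26.3 CPM (median 23.3). A single ATRA library, replicate 1, lay inside the vehicle range and the other 4 lay below it. The fitted log2 fold change was -0.50 ± 0.14. The 4 MEHP + ATRA libraries held 9.96, 7.53, 7.42 and 7.53 CPM. All 4 lay below every lower vehicle library, as 8.49% of genes tested did, and the log2 fold change was -1.498 ± 0.17.

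Rhox8 was lower in MEHP + ATRA than in ATRA alone. The highest MEHP + ATRA library, at 9.96 CPM, lay below the lowest ATRA library, at 12.6 CPM, and 3.54% of genes tested were separate in that direction. The log2 fold change was -0.997 ± 0.18, and Rhox8 was the 1 gene of the 4 called in this comparison, where 1.62% of genes tested were called higher and 1.38% lower. Set against MEHP alone, the difference of -0.23 ± 0.22 did not pass, and this comparison crosses the ranges. It was -0.53 ± 0.16 without vehicle replicates 3 and 11 and -0.61 ± 0.19 without the range term, and passed in both. The MEHP effect in the presence of ATRA differed from the effect in its absence by 0.27 ± 0.23 on the log2 scale, with 0 of the 4 genes called by edgeR or by DESeq2 and 0 at an unadjusted p of 0.05, where 0.0311% of genes tested were called (0.0104% higher and 0.0207% lower). The difference in Rhox8 moved to -0.034 ± 0.17 without vehicle replicates 3 and 11.

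Rhox6 and Rhox9 rose in both groups that had received ATRA. In ATRA libraries Rhox9 stood at 0.532, 1.22, 2.04, 1.33 and 1.37 CPM, and in lower vehicle libraries at 0.216 to 0.757 CPM (median 0.277). In ATRA libraries Rhox6 stood at 0.491, 1.31, 1.42, 1.23 and 1.26 CPM, and in lower vehicle libraries at 0.222 to 0.544 CPM (median 0.355). For each gene, 4 of the 5 ATRA libraries lay above every vehicle library and replicate 1 lay inside the vehicle range. The log2 fold changes were 1.82 ± 0.28 for Rhox9 and 1.69 ± 0.30 for Rhox6. With ATRA, 2 of the 4 genes rose and 1 fell, where 18.1% of genes tested were called (9.06% higher and 9.03% lower).

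With MEHP + ATRA the groups no longer overlapped. Rhox9 stood at 1.42, 1.49, 1.03 and 1.55 CPM in the 4 MEHP + ATRA libraries, all above the highest lower vehicle library, 0.757 CPM. Rhox6 stood at 0.819, 0.837, 1.26 and 1.10 CPM, all above the highest lower vehicle library, 0.544 CPM. Separation upward was shown by 9.14% of genes tested. The log2 fold changes were 1.90 ± 0.29 for Rhox9 and 1.51 ± 0.33 for Rhox6, and neither gene was called between MEHP + ATRA and ATRA (0.08 ± 0.30 and -0.18 ± 0.34). As in ATRA, 2 of the 4 genes rose and 1 fell with MEHP + ATRA, where 29.0% of genes tested were called (14.3% higher and 14.7% lower). Against MEHP alone, Rhox9 rose by 1.96 ± 0.45 and was the 1 gene of the 4 called, where 8.29% of genes tested were called (4.06% higher and 4.23% lower), and Rhox6 stood at 1.29 ± 0.54 without a call. That comparison crosses the ranges, so these values rest on the range term.

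With MEHP alone both sparse genes overlapped with vehicle. Rhox9 stood at 0.332 to 0.613 CPM in MEHP libraries (median 0.435) and 0.169 to 0.684 CPM in upper vehicle libraries (median 0.507). Rhox6 stood at 0.111 to 0.53 CPM in MEHP libraries (median 0.280) and 0.0465 to 0.508 CPM in upper vehicle libraries (median 0.237). Neither passed the test, with log2 fold changes of -0.06 ± 0.33 and 0.22 ± 0.42, and these SEs leave room for changes of either sign.

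The sum of Rhox6 and Rhox9 does not depend on how the counted reads were divided between them. Reads that counting may have left out of both genes would be missing from the sum too. The sum was 0.734 ± 0.18 CPM in MEHP libraries (SD, n = 6) and 0.715 ± 0.20 in upper vehicle libraries (SD, n = 6). It was 2.44 ± 0.88 CPM in ATRA (n = 5) and 2.38 ± 0.18 in MEHP + ATRA (n = 4), against 0.716 ± 0.19 in lower vehicle (n = 9). In counts, the ATRA and MEHP + ATRA libraries held 25 to 95 and 50 to 65 for the pair, and lower vehicle libraries 9 to 20. Rhox6 passed the filter on low counts (0.512 CPM in at least 4 libraries) only through the ATRA and MEHP + ATRA libraries. It reached that level in 2 vehicle libraries and 1 MEHP library. Rhox9 reached it in 4 vehicle libraries and 1 MEHP library. With the ATRA and MEHP + ATRA libraries left out and the filter run again, the smallest group is 6 libraries. In that run 2 of the 4 genes would have been tested, Rhox5 and Rhox8. A gene that enters as Rhox6 did had to be higher with ATRA, so nothing is read from the counts of calls above.

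Both genes are also placental, and the sum of 5 placental trophoblast markers was low. It was 1.38 ± 0.67 CPM in MEHP, 2.57 ± 0.46 in ATRA, 2.38 ± 0.20 in MEHP + ATRA, 1.40 ± 0.41 in lower vehicle and 1.498 ± 0.745 in upper vehicle (SD, n as above), and 1 or 2 of the 5 were at 0 throughout each group. Ascl2, the 1 of the 5 that was tested, rose by 0.94 ± 0.24 with ATRA and 0.87 ± 0.25 with MEHP + ATRA (edgeR quasi-likelihood adjusted p = 0.0045 and 0.0088). The part of this in the Rhox6 and Rhox9 result was not tested.

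ATRA replicate 1 was the lowest library of its group in Rhox5, at 14.8 CPM, in Rhox6 and in Rhox9, and the highest in Rhox8. Its Cyp26a1 level was 5.57 CPM, against 17.1 to 25.7 CPM in the other 4 ATRA libraries and at most 0.589 CPM in lower vehicle. Without it the ATRA log2 fold changes were 2.03 for Rhox9, 1.89 for Rhox6, 0.25 for Rhox5 and -0.58 for Rhox8, each of the same sign as with it. The part of this library's weaker Cyp26a1 level in the Rhox values was not tested.

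Rhox5 did not pass the test in any comparison of the fit with the range term. Its level was 8.12 to 14.4 CPM in MEHP libraries (median 12.3) and 8.10 to 17.0 CPM in upper vehicle libraries (median 12.5). In ATRA it was 14.8, 22.8, 26.8, 19.3 and 18.3 CPM, and in MEHP + ATRA 18.1, 18.2, 20.02 and 19.5 CPM, against 14.0 to 23.6 CPM in lower vehicle (median 18.6). The groups overlapped in each of these pairs. Its log2 fold change was -0.09 ± 0.17 in MEHP, 0.15 ± 0.15 in ATRA and 0.045 ± 0.16 in MEHP + ATRA.

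Rhox5 stood lower in upper than in lower vehicle libraries, by -0.53 ± 0.15 on the log2 scale, and Rhox8 stood higher, by 0.38 ± 0.13. Between the ranges 0 of the 4 were called by edgeR, 2 were past an unadjusted p of 0.05 and 1 was called by DESeq2, which gave no adjusted p for 2, where 0.373% of genes tested were called by edgeR (0.254% higher and 0.119% lower). The gene that DESeq2 called was Rhox5, which edgeR also called without vehicle replicate 6 (-0.63). The difference in Rhox8 was 0.061 ± 0.10 without vehicle replicates 3 and 11. The meaning of the range is not given, and without its term Rhox5 stood at -0.43 ± 0.16 with MEHP, since that fit sets the 6 MEHP libraries against vehicle of both ranges. In the same fit Rhox5 and Rhox6 passed between MEHP + ATRA and MEHP (0.66 and 1.75).

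**Figure D2:**
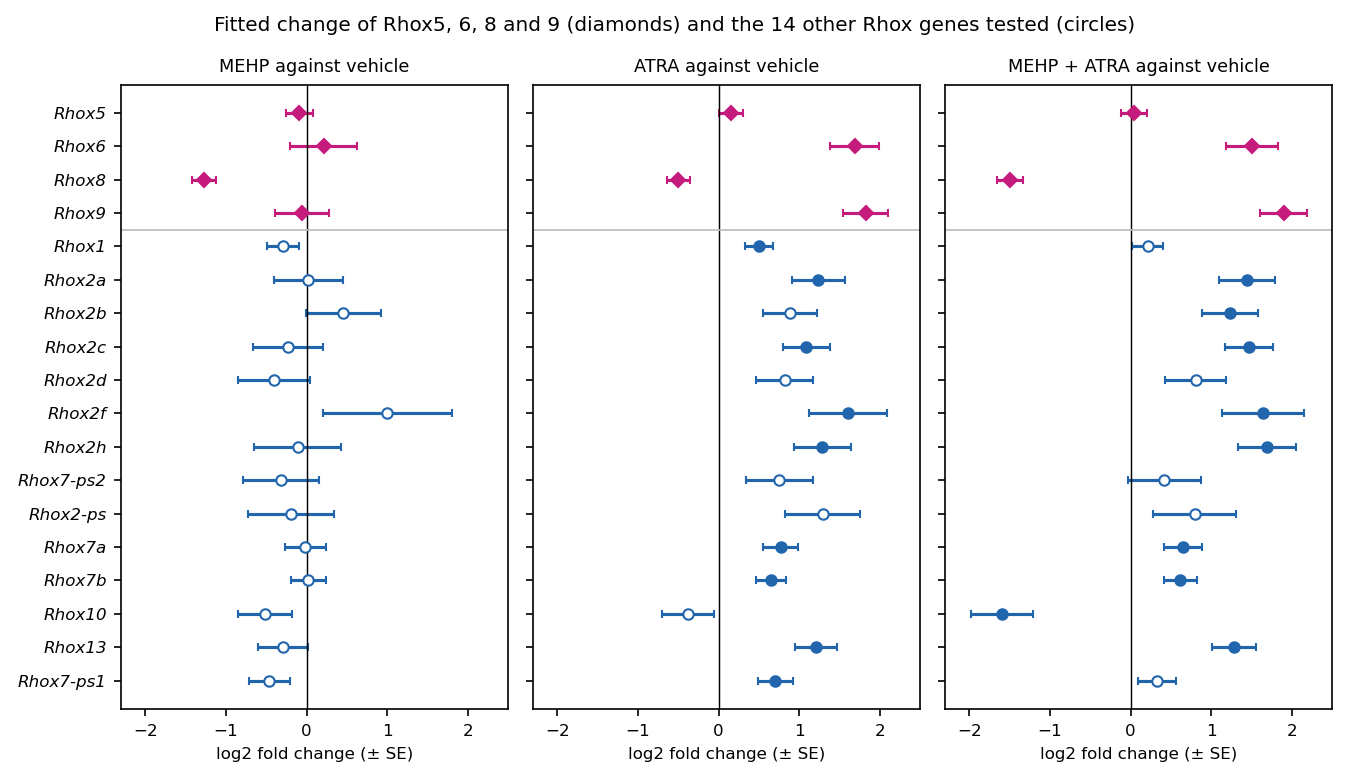
Fitted log2 fold change with its SE (horizontal axes) against vehicle in MEHP, ATRA and MEHP + ATRA (left to right), for Rhox5, Rhox6, Rhox8 and Rhox9 (diamonds) and the 14 other Rhox genes tested (circles, filled where the adjusted p was under 0.05). With MEHP the lowest point is Rhox8 at -1.27, and with ATRA and MEHP + ATRA most circles stand right of 0, with Rhox10 at -1.599 in MEHP + ATRA.

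Other genes of the cluster rose with ATRA. Of the 38 other Rhox genes 14 were tested. With ATRA 9 rose and 0 fell, with MEHP + ATRA 8 rose and 1 fell, and with MEHP 0 were called by edgeR, 0 were past an unadjusted p of 0.05 and 0 were called by DESeq2, which gave no adjusted p for 4. Over all genes tested, 9.06% rose and 9.03% fell with ATRA, and 14.3% rose and 14.7% fell with MEHP + ATRA. With MEHP 4.72% of all genes tested were called. The median log2 fold changes of the 14 were 0.85 with ATRA, 0.80 with MEHP + ATRA and -0.21 with MEHP, where the median over all genes tested was 0.00, -0.01 and -0.01. Of the 14, 4 passed the filter only through the groups with ATRA and so had to be higher there. Nothing is therefore read from the counts and medians over all 14 with ATRA and MEHP + ATRA. Among the other 10, 6 rose with ATRA and 4 rose and 1 fell with MEHP + ATRA. The rises with MEHP + ATRA numbered 5 in place of 8 without MEHP + ATRA replicate 4, and those with ATRA 6 in place of 9 without ATRA replicate 2.

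Rhox13 and Rhox10, genes known from germ cells, share no run over 16 bases with another Rhox transcript and so can be read singly. Rhox13 stood at 3.44 ± 0.50 CPM in ATRA and 3.62 ± 0.37 in MEHP + ATRA, against 1.497 ± 0.63 in lower vehicle (SD, n = 5, 4 and 9). It rose by 1.21 ± 0.26 with ATRA (edgeR quasi-likelihood adjusted p = 0.00091) and 1.28 ± 0.28 with MEHP + ATRA (adjusted p = 0.00051), and stood at -0.29 ± 0.31 with MEHP. Rhox10 stood at 2.10 ± 0.45 CPM in MEHP + ATRA and 6.39 ± 2.7 in lower vehicle, and fell by 1.599 ± 0.38 on the log2 scale (edgeR quasi-likelihood adjusted p = 0.0016). Rhox10 lay below every lower vehicle library in 1 of the 4 MEHP + ATRA libraries, so the groups overlapped. With ATRA alone its value was -0.38 ± 0.32 and with MEHP alone -0.52 ± 0.34, neither called. Of the 12 germ cell markers, 4 fell and 1 rose with MEHP + ATRA (median log2 fold change -0.44), beside 14.7% of all genes tested that fell. Nanos3 was lowest at -1.54 ± 0.34 and Kit, the 1 that rose, stood at 0.97 ± 0.07 (edgeR quasi-likelihood adjusted p = 0.00065 and 4.3e-12). The germ cell marker sum was 858 ± 133 CPM in MEHP + ATRA and 1016 ± 137 in lower vehicle (SD, n = 4 and 9), and its part in the Rhox10 result was not tested. With ATRA 1 of the 12 rose and 0 fell, beside 9.06% of all genes tested that rose and 9.03% that fell. With MEHP 0 were called by edgeR (1 at an unadjusted p of 0.05) and 0 by DESeq2.

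The remaining calls were to genes with near-identical copies. Rhox2b, Rhox2c, Rhox2f and Rhox2h are the 4 that passed the filter only through the groups with ATRA, so they had to be higher there and their values are a description. Rhox2a rose by 1.24 with ATRA and 1.44 with MEHP + ATRA on the log2 scale. Rhox2c, Rhox2f and Rhox2h stood at 1.09 to 1.61 with ATRA and 1.47 to 1.69 with MEHP + ATRA, and Rhox2b at 1.23 with MEHP + ATRA. Rhox7a and Rhox7b rose by 0.77 and 0.65 with ATRA and by 0.65 and 0.61 with MEHP + ATRA, and Rhox7-ps1, a pseudogene, by 0.70 with ATRA. These copies share runs of 124 to 486 bases with another Rhox transcript, so counting could have divided their reads, and the count of genes that rose is uncertain to that degree. Rhox1, which shares a run of 31 bases with another copy, rose by 0.50 ± 0.18 with ATRA (edgeR quasi-likelihood adjusted p = 0.047), a call lost with no filter on low counts (adjusted p = 0.067), with a replicate block (0.064) and on leaving out any of several single libraries, with the highest value without ATRA replicate 2 (0.15). The 5 tested genes not called with ATRA stood between -0.38 (Rhox10) and 1.29 (Rhox2-ps).

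Genes next to the cluster were counted in the same way. Of 20 protein-coding X-linked genes within 500 kb of the outermost Rhox genes, 18 were tested, of which 3 rose and 0 fell with MEHP, 4 rose and 1 fell with ATRA and 5 rose and 0 fell with MEHP + ATRA. Over all genes tested 4.72%, 18.1% and 29.0% were called in these comparisons. The share of neighbours was above that of all genes with MEHP and with ATRA, and near it with MEHP + ATRA, at small counts. Sowahd rose most among the neighbours in each comparison, by 1.65 ± 0.21, 1.99 ± 0.19 and 2.79 ± 0.19 on the log2 scale. The nearest on the lower side, Gm9, rose by 1.48 ± 0.26 with ATRA and 1.66 ± 0.27 with MEHP + ATRA (edgeR quasi-likelihood adjusted p = 7.0e-05 and 1.4e-05). Rnf113a1, the next gene on that side, was not called with any treatment (0.10 ± 0.09 with ATRA). On the upper side Atp1b4 was not tested, and Lamp2, a lysosomal membrane protein gene, rose by 0.44 ± 0.08 with MEHP + ATRA (adjusted p = 4.5e-05), and stood at 0.16 ± 0.07 with ATRA and 0.22 ± 0.08 with MEHP without a call.

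Lists of transcription factors, promoter regulators, methylation genes and genes known to depend on Rhox5 were counted in the same fit. The list below mixes Sertoli cell factors with Rhox promoter regulators, so a gene named from it need not act on the cluster. Action of its members on the cluster was not tested. Of 19 Sertoli cell transcription factors and Rhox promoter regulators tested, 2 rose and 0 fell with MEHP, 6 rose and 3 fell with ATRA, and 8 rose and 4 fell with MEHP + ATRA, beside 4.72%, 18.1% and 29.0% of all genes tested called. Their median log2 fold changes were 0.09, -0.01 and -0.01. With MEHP + ATRA, Nr0b1, a nuclear receptor that represses steroid hormone genes, rose by 2.54 ± 0.12, Runx1 by 1.64 ± 0.16 and Gata6 by 1.12 ± 0.08, and Lhx9 fell by 0.98 ± 0.09 on the log2 scale (edgeR quasi-likelihood adjusted p from 2.4e-16 to 1.2e-09).

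Rhox genes are known to be silenced by DNA methylation in tissues that do not express them. Of 18 DNA and histone methylation genes tested, 0 were called with MEHP by edgeR (1 at an unadjusted p of 0.05) and 0 by DESeq2, 1 rose and 1 fell with ATRA, and 2 rose and 0 fell with MEHP + ATRA. Over all genes tested 4.72%, 18.1% and 29.0% were called with MEHP, ATRA and MEHP + ATRA. The share of the list was below that of all genes in each comparison, at small counts. Zbtb33, which binds methylated DNA, rose by 0.26 ± 0.06 with ATRA and 0.38 ± 0.07 with MEHP + ATRA. Unc5c, a gene that Rhox5 is known to restrain in mouse Sertoli cells, was not called in any treatment (0.05 ± 0.12 with ATRA) and Ins2, another gene known to depend on Rhox5, was not tested.

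Between libraries of the same group, no pair of the 4 genes had a relation that passed the test. After the mean of each treatment and range was taken away, the 6 pairs gave Pearson's r from -0.52 to 0.12 over 30 libraries. The pair farthest from 0, Rhox6 and Rhox8, had r = -0.52 (permutation within groups, 100000 resamples, two-sided, p = 0.022, adjusted over 6 pairs 0.13) and Spearman's rho = -0.35 (p = 0.11, adjusted 0.64). Rhox6 and Rhox9, the pair most alike in sequence, had r = 0.01 (permutation p = 0.95). At counts of 1 to 56 per library a weak relation could go unseen.

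**Figure D3:**
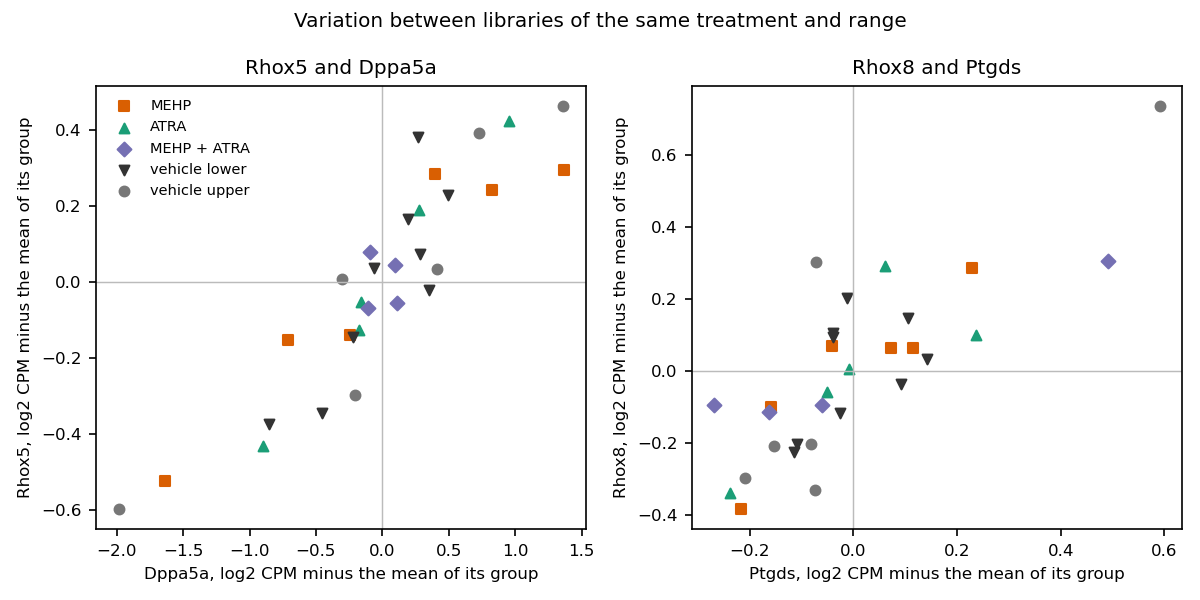
Each point is 1 of 30 libraries, drawn by group, with log2 CPM minus the mean of its treatment and range for Dppa5a (left, horizontal) and Rhox5 (left, vertical), and for Ptgds (right, horizontal) and Rhox8 (right, vertical). Rhox5 follows Dppa5a (r = 0.91 over all libraries), while the relation of Rhox8 with Ptgds has 1 vehicle library far at the upper right.

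Rhox5 varied closely with several germ cell genes. Candidates were the 13100 genes with a symbol whose mean log2 CPM reached 1, leaving out predicted genes and clone-style names. The 5 most like Rhox5 over 30 libraries were Liph (r = 0.91), Dppa5a (0.91), Cdh1 (0.91), Dazl (0.91) and Six4 (0.91). Dppa5a, Dazl and Cdh1 are known from germ cells. Within the 15 vehicle libraries alone the same 5 had r from 0.89 to 0.92. These 15 are among the 30 libraries by which the 5 were picked, so this is no separate check. Dppa5a itself ranged from 2.89 to 30.3 CPM among the 6 upper vehicle libraries and from 11.95 to 30.4 CPM among the 9 lower ones.

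Without a replicate block, no relation passed the test with the germ cell markers as a sum. Against the summed level of the 12 germ cell markers, Rhox5 had r = 0.06 and rho = 0.01 (permutation p = 0.79 and 0.95). Taken gene by gene, in a family of 120 relations of the 4 genes with 12 germ cell and 18 Sertoli cell markers that was examined after the sums were seen, 5 of the 12 germ cell markers had a positive relation with Rhox5 past the threshold. They were Dppa5a, Dazl, Dppa3, Nanos3 and Pou5f1, of which Dppa5a, Dppa3 and Pou5f1 are also known from pluripotent cells. Their r was 0.91, 0.91, 0.84, 0.84 and 0.69, with permutation p adjusted over 120 of 0.0003 for the first 4, whose unadjusted p of 1e-05 is the smallest the permutations can give, and 0.0064 for Pou5f1. Their rho was 0.91, 0.88, 0.84, 0.82 and 0.54, and the adjusted p of the last was 0.087.

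The other 7 germ cell markers had r from -0.54 (Tdrd1) to 0.09 (Ddx4) and none was called over all libraries. On leaving out any single one of vehicle replicates 1, 4 and 14 and MEHP replicate 2, 1 of them was called with a negative r. Mael and Dnd1, which act in the piRNA pathway and in germ cell RNA protection, had r = -0.45 and -0.43 (permutation p adjusted over 120 of 0.15 and 0.19). Of the summed level, Dazl made up 13.9% and Mael 13.3%. Without the 2 libraries farthest from the median of Rhox5, r was 0.87 for Dppa5a, 0.87 for Dazl, 0.85 for Dppa3, 0.75 for Nanos3 and 0.52 for Pou5f1. Within the 18 lower and the 12 upper libraries, r of Rhox5 with Dppa5a was 0.91 and 0.94. Of the 18 Sertoli markers 1 was called with Rhox5, Fshr, the receptor of follicle-stimulating hormone, at r = -0.68 and rho = -0.69 (permutation p adjusted over 120 of 0.0008 for each), with r = -0.54 without the 2 farthest libraries.

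**Figure D4:**
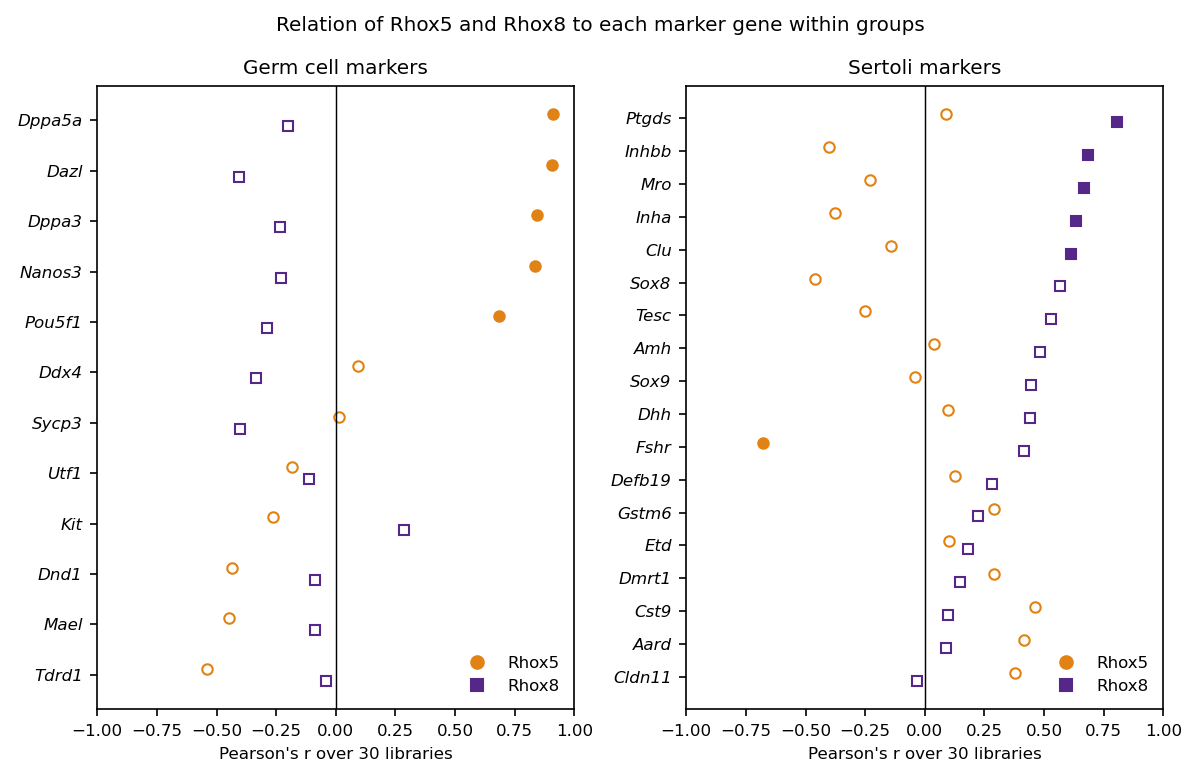
Pearson's r of Rhox5 (circles) and Rhox8 (squares) with each of 12 germ cell markers (left) and 18 Sertoli cell markers (right) over 30 libraries centred on their group, filled where the permutation p adjusted over 120 relations was under 0.05. Rhox5 splits the germ cell markers, from 0.91 for Dppa5a to -0.54 for Tdrd1, and Rhox8 stands above 0 with each Sertoli marker but Cldn11.

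Rhox8 varied with Sertoli cell genes. Against the summed level of the 18 Sertoli markers it had r = 0.62 and rho = 0.50 (permutation p = 0.0020 and 0.0098, adjusted over 8 relations 0.016 and 0.078). The relation weakened to r = 0.51 (adjusted p = 0.055) without the 2 libraries farthest from the median and to r = 0.46 (adjusted p = 0.12) without vehicle replicate 11, so it rested on those libraries. Within single groups r was 0.48 in MEHP (n = 6), 0.82 in upper vehicle (n = 6) and 0.32 in lower vehicle (n = 9). Gene by gene, 5 of 18 Sertoli markers were called: Ptgds, a prostaglandin synthase, at r = 0.80 (rho = 0.77, permutation p adjusted over 120 of 0.00072 and 0.00048), and Inhbb, Mro, Inha and Clu at 0.68, 0.67, 0.63 and 0.61. By Spearman's rho 2 were called, Ptgds and Inhbb, and the permutation p of rho adjusted over 120 was 0.056 for Mro, 0.056 for Clu and 0.077 for Inha. Without vehicle replicate 11, 1 was called by Pearson's r. Without the 2 farthest libraries r with Ptgds was 0.65.

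The 5 genes most like Rhox8 were Ptgds (r = 0.80), Rnd2 (0.80), Folr1 (0.78), Map2k1 (0.77) and Itga6 (0.77). Their r was 0.79 to 0.88 among the 15 vehicle libraries and 0.61 to 0.75 without the 2 libraries farthest from the median of Rhox8. Both sets are part of the libraries by which the 5 were picked, so neither is a separate check. Rhox8 and the summed germ cell markers had r = -0.28 (permutation p = 0.22, adjusted over 8 relations 0.68). With the replicate block this relation passed, at r = -0.51 (permutation p adjusted over 8 relations 0.023). For the sparse pair the nearest genes stood lower, Siva1 (r = 0.63), Asxl3, Art3, Cep112 and Inpp4b (0.59) for Rhox6, and Doc2g (0.61), Pim2, Chrnb2, Acad10 and Rec8 (0.60) for Rhox9, which at these counts are given as values only. Of the 30 markers, Kit alone was called with Rhox9, at r = 0.55 (rho = 0.59, permutation p adjusted over 120 of 0.021 and 0.016), and none with Rhox6.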

How the data were processed

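Poly(A)-enriched RNA of cultured fetal testes was sequenced, and the authors deposited 1 file of raw read counts per gene for each of 30 libraries. Per the submitters' processing notes the tools were bcl2fastq 2.20, Trimmomatic 0.36, STAR 2.5.2b, featureCounts of Subread 1.5.2 and DESeq2. Genome build, annotation and strand setting: not given in the sources used here.

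Genes were kept by edgeR's filterByExpr (minimum count 10), libraries were scaled by TMM (factors 0.975 to 1.02), and edgeR 4.0.16 in R 4.3.3 fitted quasi-likelihood models to all 30 libraries with terms for MEHP, ATRA, their combination and the range of the second title number (split at 500). SEs are the log2 fold change divided by the square root of F, with 25 residual degrees of freedom. P-values were adjusted by Benjamini-Hochberg over 19323 genes in each of 7 contrasts. A gene counts as called at an adjusted p of 0.05.

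Co-variation used log2 CPM (prior count 2) centred on treatment and range, with 100000 permutations within those groups, two-sided. DESeq2 1.42.0, other scalings, no filter, no range term, a replicate block on the first title number, and leaving out each library were alternatives. The pipeline was tested on simulated data. The 4 genes and the gene lists were chosen with earlier results of these data known. Named genes are the Rhox genes tested, the 5 most like each of the 4, the 2 nearest neighbours on each side, up to 4 per list by smallest p in MEHP + ATRA, and a few named for a count or a marker list, chosen after their values were seen. Of 82 pairs of libraries within a group, the most alike differed beyond counting noise (chi-square per gene 2.65). Coding sequences come from GENCODE M21. Depth of 17551454 to 29306917 counts per library limits Rhox6 and Rhox9, with 1 to 56 counts each.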

Additional observations from a re-analysis of the deposited data

Results flagged for a closer look

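In 3 of 20 groups, each 1 gene in 4 to 9 libraries, 1 library stood far from the rest of its group, by its gap to the nearest value over the group's whole range, and chance flags about 1 in 20 groups. Rhox6 in ATRA replicate 1 was 0.491 CPM, with the nearest ATRA library at 1.23 CPM. Rhox8 in MEHP + ATRA replicate 1 was 9.96 CPM, with the nearest at 7.53 CPM. Rhox9 in vehicle replicate 8, of the lower range, was 0.757 CPM, with the nearest at 0.444 CPM.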

How the results depend on the processing

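No called change of the 4 genes reversed under any alternative run. Without the range term, the share of genes called was 11.5% with MEHP, 16.5% in MEHP + ATRA against MEHP and 0.0518% for the interaction. In that fit 1 other Rhox gene was lower with MEHP, Rhox5 stood at -0.43 with MEHP, 0.66 in MEHP + ATRA against MEHP and 0.32 for the interaction, and Rhox8 stood at -0.61 in MEHP + ATRA against MEHP. Fitted within one range alone, 2.14% of genes were called with MEHP and 4.94% in MEHP + ATRA against ATRA. Between vehicle ranges 0.0489% of genes were called with no filter on low counts and 1.75% by DESeq2, which called 0.0621% for the interaction. Without vehicle libraries 3 and 11, chosen after seeing the data, Rhox8 stood at -0.95 with MEHP, -0.53 in MEHP + ATRA against MEHP, -0.034 for the interaction and 0.061 between ranges, where 0.0104% of genes were called. The causes were not tested.

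The first title numbers were taken as a replicate block. Deviations of treated and vehicle libraries correlated positively in all 9 blocks (0.083 to 0.648), and over 0.1 in 7. The labels do not tell if the libraries of a block are paired, and the cause of the shared deviations was not tested. The main fit and the main permutations leave the block out. With the replicate block 0.0104% of genes were called for the interaction, the germ cell marker sum passed with Rhox5 (r = 0.53) and with Rhox8 (r = -0.51), both at a permutation p adjusted over 8 relations of 0.023, 1 germ cell marker was called with Rhox5 at a negative r, and 9 Sertoli markers were called with Rhox8.

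The relation of Rhox8 with the Sertoli marker sum was r = 0.65 (permutation adjusted p = 0.21) in vehicle alone and 0.51 (0.055) without the 2 farthest libraries, and 1 Sertoli marker was called in each. Leaving out 1 library at a time gave, lowest to highest, 5 to 8 other Rhox genes higher with MEHP + ATRA, and 1.75% to 3.49% of genes called in MEHP + ATRA against ATRA, 0.0155% to 0.0466% for the interaction and 0.0621% to 0.952% between ranges. It gave r of Rhox6 with Rhox8 from -0.58 to -0.34, r of Rhox8 with the Sertoli sum from 0.46 to 0.66, and 1 to 8 Sertoli markers called with Rhox8.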
